A study of Mus musculus with 6 samples.

Results

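The keratin genes of mouse skin were taken as all genes of the count table whose symbol is Krt followed by a number and at most 1 letter, which left out the keratin-associated protein genes. By this rule 54 of 56941 genes were keratins, 28 of type I and 26 of type II, and all 54 passed the filter on low counts that left 32149 genes for the test. RNA came from hair follicle stem cells (HFSCs) that the authors sorted by FACS as CD34+/α6-integrin+ cells from dorsal skin of female mice at postnatal day 68 (PD68). The strain was B6;129S4-Dab2tm1Cpr/J, and all mice were Dab2 fl/fl and received tamoxifen at 75 mg per kg on 5 days. The WT group lacked Cre, and the Dab2-cKO group carried K14CreER, a tamoxifen-inducible Cre recombinase under a K14 promoter. K14 is the protein of Krt14, 1 of the genes described here. After tamoxifen, Cre acts in cells that use this promoter. There were 3 biological replicates per genotype.

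Keratins build the intermediate filaments of epithelial cells, and each filament unit pairs a type I with a type II chain. The genes are used layer by layer: Krt5 and Krt14 in basal cells, Krt1 and Krt10 in the suprabasal epidermis. In the follicle, Krt75 is used in the companion layer, Krt25 to Krt28 and Krt71 to Krt73 in the inner root sheath, and the hard keratins in the hair shaft. Hair shaft and inner root sheath are built by the matrix of a growing follicle, whereas HFSCs of the bulge are basal cells in which Krt15 is a known marker.

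Total counts lay between 7040032 and 11696457 per library, and mitochondrial genes took 13.0% to 14.4% of counts in the libraries labelled WT and 19.1% to 20.3% under the Dab2-cKO label. Normalized counts are counts scaled to a common effective library size. The targeted gene went against the labels. Dab2 had 338, 332 and 309 normalized counts in replicates 1, 2 and 3 labelled WT and 1434, 1300.2 and 1389.5 under the Dab2-cKO label, with a log2 fold change, Dab2-cKO over WT, of 2.08 ± 0.08 (SE, as for all log2 fold changes here) and an edgeR adjusted p of 3.04e-34. Counts were summed over the gene and do not tell reads of the deleted part of Dab2 from other reads. The cause of the higher Dab2 counts was not tested. The columns of the table are named WT and FL-FL, and FL-FL was taken as Dab2-cKO from the title of the series, so every direction given here depends on that assignment. All 12 bulge markers looked at were detected. In the libraries labelled Dab2-cKO 6 were higher, among them Cd34 at 1.80 ± 0.08, Nfatc1 at 1.32 ± 0.10 and Itga6 at 0.55 ± 0.07 on the log2 scale. There 4 were lower, among them Sox9 at -1.45 ± 0.08 and Lgr5 at -1.32 ± 0.11. For comparison, 16.8% of all genes tested were called higher and 11.5% lower. The summed normalized counts of the 12 bulge markers ran from 8221 to 9455 labelled WT and from 12842 to 12913 labelled Dab2-cKO. Markers of other cells were also present in every library. The sums of 6 fibroblast markers were larger, from 101493 to 122727 labelled WT and from 353980 to 373641 labelled Dab2-cKO. Detection of bulge markers thus does not check the sorted cell type. In bulk samples, fewer cells of a type and less RNA per cell cannot be told apart.

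Of the 54 keratin genes, 31 were lower and 10 higher in the libraries labelled Dab2-cKO at an adjusted p under 0.05, and 13 were not called. Among all genes tested 28.2% were called, 11.5% lower and 16.8% higher. The 3 libraries of one label lay apart from the 3 of the other for 41 keratin genes, against 38.3% of all genes. Directions sorted by layer. All 15 hair shaft keratins, all 8 inner root sheath keratins and 4 of 5 companion layer keratins were lower, whereas all 3 basal and 6 of 11 suprabasal keratins were higher. The median log2 fold change was -6.71 in the hair shaft, -6.45 in the inner root sheath, -1.64 in the companion layer, 0.84 in basal and 0.93 in suprabasal keratins, and it was -0.023 over all genes.

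**Figure D1:**
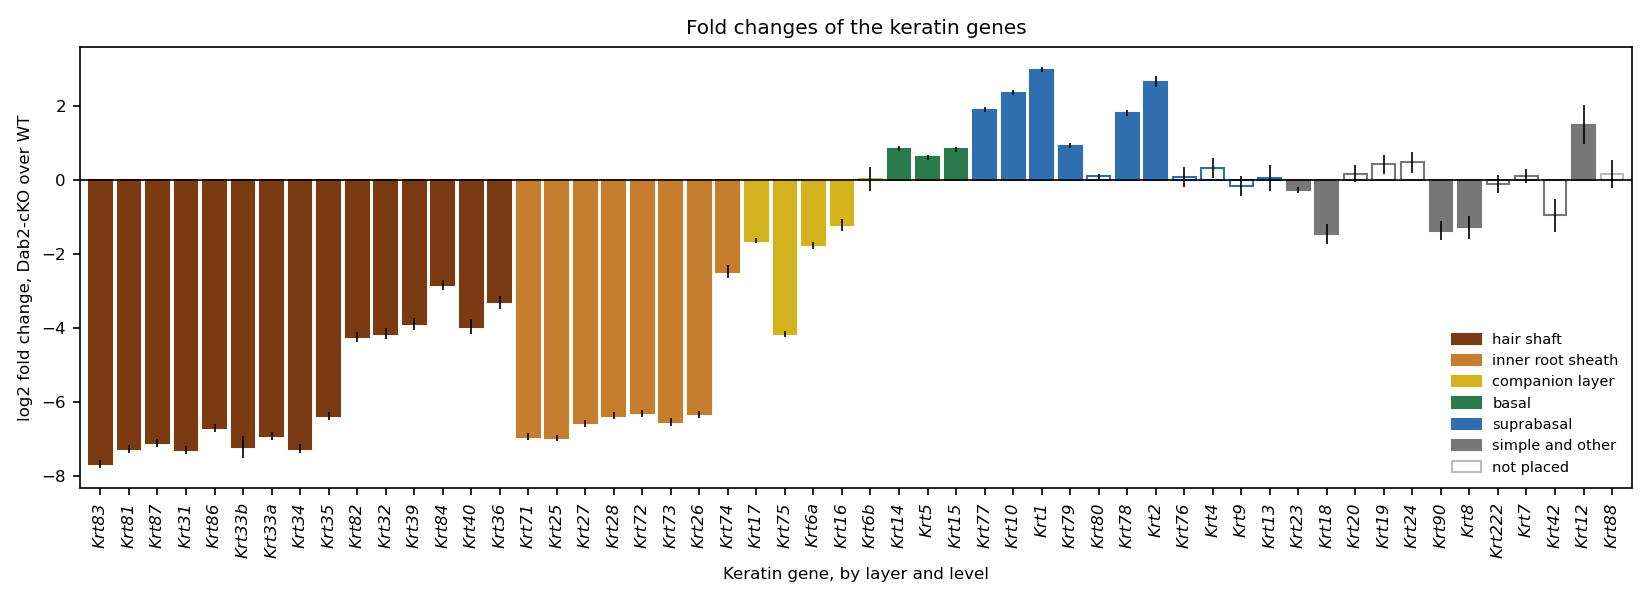
Log2 fold changes, Dab2-cKO over WT, for each of the 54 keratin genes, by layer and, within a layer, from the highest to the lowest level. Bars are edgeR estimates, lines their standard errors, filled bars genes with an adjusted p under 0.05 and open bars the others; in the hair shaft, the inner root sheath and the companion layer all filled bars point down and those of basal and suprabasal keratins up.

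Keratins together took 2.13% ± 0.0847 of all counts under the WT label (SD, n = 3) and 0.914% ± 0.0198 under the Dab2-cKO label. Their makeup differed more than their sum. Hair shaft keratins made up 25.1% ± 0.155 and inner root sheath keratins 48.9% ± 0.0642 of keratin counts in the libraries labelled WT, so that genes of these layers took most keratin reads of cells sorted as HFSCs. In the libraries labelled Dab2-cKO these shares were 0.483% ± 0.0229 and 0.822% ± 0.0279. Suprabasal keratins went from 9.63% ± 0.0787 to 66.6% ± 0.378 of keratin counts, and basal keratins from 9.68% ± 0.118 to 28.4% ± 0.285. The companion layer went from 5.98% ± 0.0554 to 2.65% ± 0.0396. The 3 libraries of each label were close to each other, and no share of these 5 layers overlapped between labels.

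**Figure D2:**
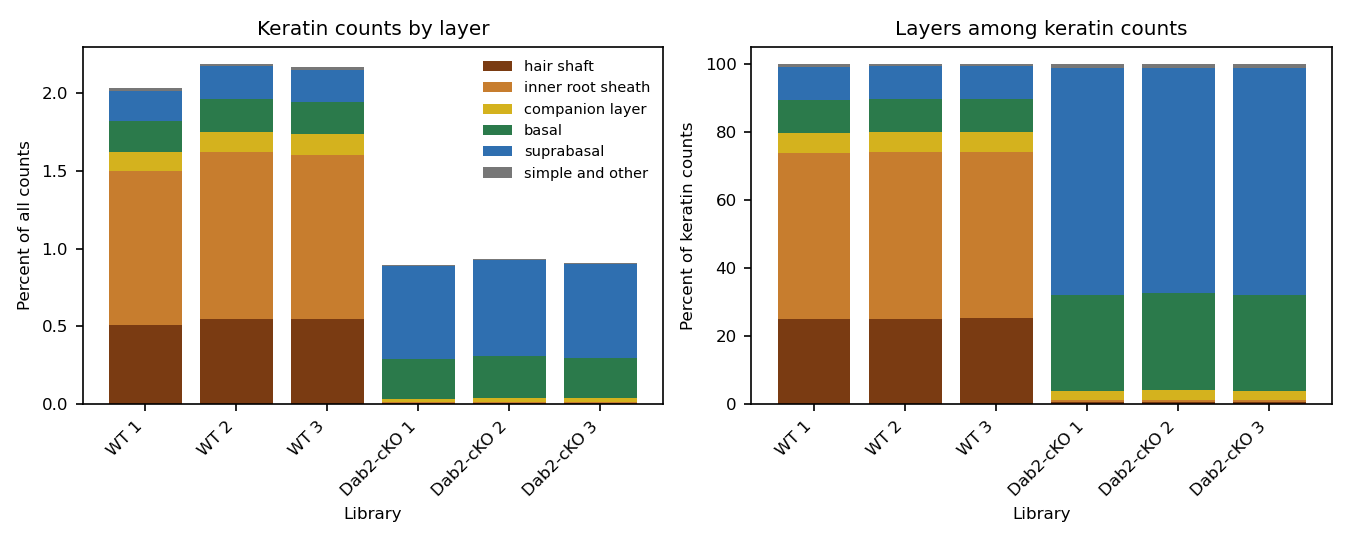
Keratin counts of each library by layer, as percent of all counts (left) and as percent of keratin counts (right). In the 3 libraries labelled WT the hair shaft and inner root sheath fill most of the bar, and in the 3 labelled Dab2-cKO the suprabasal and basal keratins do.

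To show which levels are low, levels per kb of exon were set beside 1527 olfactory, vomeronasal and trace amine receptor genes, which are known from sensory neurons. The 95th percentile of these receptor genes was 12.4 normalized counts per kb in the libraries labelled WT and 11.8 under the Dab2-cKO label. Above it were 51 keratins in the first and 47 in the second. Per kb, the order in the libraries labelled WT began with Krt71, Krt25, Krt27, Krt83 and Krt17, and under the Dab2-cKO label with Krt77, Krt10, Krt14, Krt5 and Krt15. The lead thus passed from inner root sheath and hair shaft genes to suprabasal and basal genes. Within the first order, Krt71 at 14721 ± 1371 and Krt25 at 10451 ± 687 did not overlap, whereas the ranges of Krt83 at 4759 ± 466 and Krt17 at 4128 ± 362 did, although Krt83 was the higher in each of the 3 libraries. Within the second, Krt77 at 9836 ± 105 and Krt10 at 9719 ± 63.0 lay within their spread, and Krt14 followed at 6122 ± 136.

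**Figure D3:**
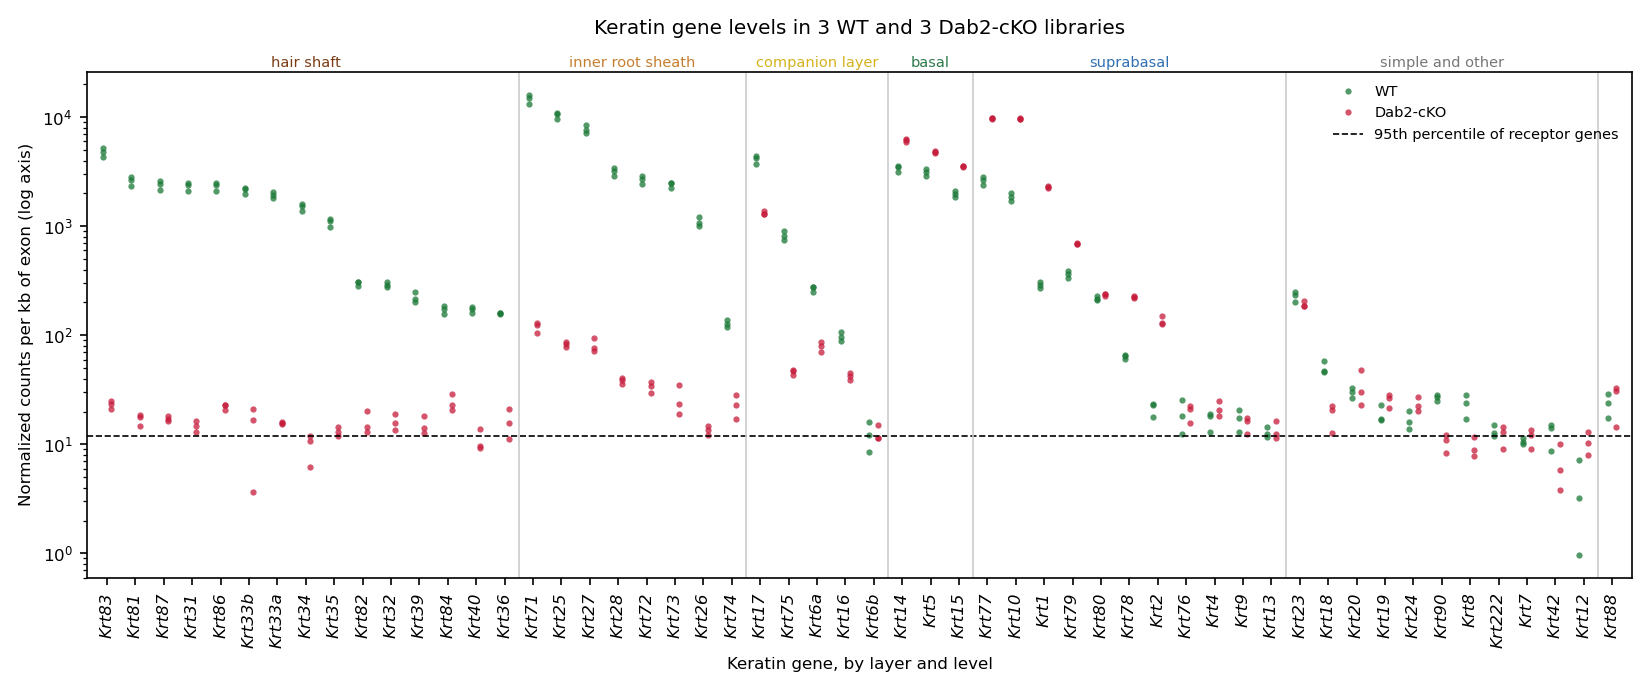
Normalized counts per kb of exon on a log axis, 1 point per library, green for the 3 libraries labelled WT and red for the 3 labelled Dab2-cKO, with the 95th percentile of receptor genes as a dashed line. Hair shaft keratins labelled Dab2-cKO lie around that line, with means from 9.58 to 24.2, the most abundant inner root sheath keratins stay well above it, and basal and abundant suprabasal keratins are high under both labels.

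The 250 bases before the start of 6 genes are shown because their layers moved in opposite directions: the 2 most abundant genes per kb of the hair shaft and of the inner root sheath, which were lower, and the most abundant basal and suprabasal gene, which were higher. They were read from GRCm39, the build of the counts, and run 5′ to 3′ in the direction of the gene. Capitals mark TATAAA, the TATA box; CTTTGA or CTTTGT, the core bound by LEF1 and other TCF factors; and TGANTCA, the AP-1 motif, on either strand, and no match of one is part of another here.
Krt83 (chr15:101389396-101389645, minus strand): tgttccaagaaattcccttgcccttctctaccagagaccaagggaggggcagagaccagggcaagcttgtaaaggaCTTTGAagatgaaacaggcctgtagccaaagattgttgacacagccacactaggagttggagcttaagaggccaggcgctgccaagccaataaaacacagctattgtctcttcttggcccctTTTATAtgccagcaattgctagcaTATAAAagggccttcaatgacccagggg
Krt81 (chr15:101361652-101361901, minus strand): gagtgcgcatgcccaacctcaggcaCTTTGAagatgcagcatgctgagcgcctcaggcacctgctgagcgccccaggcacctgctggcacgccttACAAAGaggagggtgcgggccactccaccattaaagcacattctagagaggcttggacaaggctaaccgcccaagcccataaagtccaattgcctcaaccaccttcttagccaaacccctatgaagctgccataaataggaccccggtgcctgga
Krt71 (chr15:101651545-101651794, minus strand): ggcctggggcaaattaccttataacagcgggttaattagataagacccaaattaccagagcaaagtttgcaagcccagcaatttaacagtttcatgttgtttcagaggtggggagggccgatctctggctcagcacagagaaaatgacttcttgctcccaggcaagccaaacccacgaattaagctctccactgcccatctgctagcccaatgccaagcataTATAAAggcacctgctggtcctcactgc
Krt25 (chr11:99213778-99214027, minus strand): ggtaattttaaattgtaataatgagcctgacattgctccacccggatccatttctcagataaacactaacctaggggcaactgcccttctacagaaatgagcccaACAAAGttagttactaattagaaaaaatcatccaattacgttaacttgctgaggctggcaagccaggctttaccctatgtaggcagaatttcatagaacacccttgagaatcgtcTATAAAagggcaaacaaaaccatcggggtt
Krt14 (chr11:100098491-100098740, minus strand): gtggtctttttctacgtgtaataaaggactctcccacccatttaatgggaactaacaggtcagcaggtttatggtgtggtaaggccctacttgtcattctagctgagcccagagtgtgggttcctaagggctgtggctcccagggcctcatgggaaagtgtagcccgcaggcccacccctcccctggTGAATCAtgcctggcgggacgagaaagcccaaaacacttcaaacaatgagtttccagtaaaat
Krt77 (chr15:101778246-101778495, minus strand): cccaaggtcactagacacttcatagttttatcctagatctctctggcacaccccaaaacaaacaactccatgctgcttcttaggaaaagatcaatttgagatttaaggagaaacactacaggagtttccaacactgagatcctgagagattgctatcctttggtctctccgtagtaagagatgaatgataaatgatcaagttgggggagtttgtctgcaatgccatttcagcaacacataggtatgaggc

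Among the 53 keratin genes with such a promoter, all but Krt74, TATAAA stood in 10 of 15 hair shaft and 7 of 7 inner root sheath promoters, against 1 of 5 in the companion layer, 1 of 3 basal and 2 of 11 suprabasal promoters, and in 11.9% of all 21667 promoters of that length before protein-coding genes. On the strand of the gene and 20 to 40 bases before its start it stood in 6 hair shaft and 6 inner root sheath promoters. It also stood there in 1 of 5 companion layer and 2 of 11 suprabasal promoters, Krt10 among them. No basal promoter held it there, and 2.38% of all promoters did. In the Krt83 promoter it began 28 bases before the start, in Krt71 also 28 and in Krt25 30. The LEF1 core stood in 12 of 15 hair shaft promoters, 2 of 7 of the inner root sheath, none of the 5 companion layer or 3 basal and 2 of 11 suprabasal ones, and in 27.2% of all. Both hair shaft promoters shown hold it, Krt81 at 225 and 155 bases before the start. The AP-1 motif was in 2 of 3 basal, 2 of 5 companion layer and 2 of 11 suprabasal promoters, in none of the hair shaft or inner root sheath, and in 6.18% of all. GCCNNNGGC, the AP-2 motif, was in 1 of 15 hair shaft, 1 of 7 inner root sheath, 1 of 3 basal and 3 of 11 suprabasal promoters, and in 13.2% of all. A match describes letters only. No binding was measured.

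The hair shaft is built of hard keratins, which are rich in cysteine and are cross-linked in the cortex and cuticle. The 15 members took 0.535% ± 0.0241 of all counts under the WT label (SD, n = 3) and 0.00442% ± 0.000139 under the Dab2-cKO label, a 121-fold lower share. Krt83, a type II keratin of the cortex at chr15:101383011-101389395, had 7899.7, 9618 and 8806 normalized counts in replicates 1, 2 and 3 labelled WT and 42.9, 39.1 and 46.4 under the Dab2-cKO label. All 3 libraries labelled WT lay far above all 3 labelled Dab2-cKO, with a log2 fold change of -7.67 ± 0.11 and an edgeR adjusted p of 8.53e-61. Krt81, a type II cortex keratin on the same chromosome, had 5052, 6110.1 and 5674 normalized counts in replicates 1, 2 and 3 labelled WT. It had 31.5, 38.0 and 39.7 under the Dab2-cKO label. The log2 fold change was -7.27 ± 0.11, with an edgeR adjusted p of 8.30e-59. Krt87, also type II, had 5563, 6788 and 6336 normalized counts in replicates 1, 2 and 3 labelled WT and 42.9, 44.9 and 47.5 under the Dab2-cKO label, with a log2 fold change of -7.11 ± 0.11 and an edgeR adjusted p of 4.99e-59. None of these 3 overlapped between labels, and the libraries of one label differed little.

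The type I partners of the cortex had fold changes of the same size. Krt31, Krt33a, Krt33b and Krt34 had log2 fold changes of -7.30 ± 0.11, -6.93 ± 0.11, -7.22 ± 0.30 and -7.27 ± 0.12. Krt33b was the least even of them, with 33.4, 5.75 and 26.5 normalized counts in replicates 1, 2 and 3 labelled Dab2-cKO. These 4 genes are close copies, and 17.6% of the 100-base windows of Krt34 transcripts also occur in other genes, so reads may have been split between them. With their counts summed, the 4 genes had a log2 fold change of -7.20 ± 0.09. Of Krt81 and Krt86 windows 28.6% and 24.5% were shared, and the sum of Krt81, Krt83, Krt86 and Krt87 gave -7.26 ± 0.08. Summing thus left the direction and size as they were for single genes.

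The parts of the shaft had different medians. The 9 cortex keratins had a median log2 fold change of -7.22 and the 4 cuticle keratins, Krt32, Krt39, Krt40 and Krt82, of -4.06. Krt35, which appears early in the matrix and precortex, had a log2 fold change of -6.39 ± 0.11, and Krt84, a hard keratin also known from the tongue, of -2.84 ± 0.13, the smallest of the 15. Cuticle keratins were less abundant to begin with: Krt82 had 301 ± 13.3 and Krt83 4759 ± 466 normalized counts per kb in the libraries labelled WT. In those labelled Dab2-cKO they had 16.0 ± 3.89 and 23.2 ± 1.96, where 13 of the 15 genes were above the receptor percentile and Krt34 and Krt40 were not. Mean levels labelled Dab2-cKO lay between 9.58 and 24.2 per kb over the layer, a much narrower range than the 158 to 4759 labelled WT. The remaining members, Krt86, with -6.71 ± 0.10, and Krt36, a keratin also found in nail and tongue, with -3.31 ± 0.18, were lower too.

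Hair genes that are no keratins moved with them. All 12 matrix markers outside the keratins were lower, with a median log2 fold change of -3.46, beside 11.5% of all genes called lower. Their summed normalized counts ran from 156921 to 190833 in the libraries labelled WT and from 2988 to 3193 under the Dab2-cKO label. The cysteine-rich protein gene S100a3 changed by -6.03 ± 0.13 and the peptidylarginine deiminase gene Padi3 by -5.12 ± 0.11. Dsg4, the desmoglein of the shaft, changed by -4.12 ± 0.18. All 5 melanocyte markers, whose cells pigment the growing shaft, were lower as well, with sums from 2595 to 2819 in the libraries labelled WT and from 732 to 779 under the Dab2-cKO label. None of these markers was at 0 in all libraries. Their part in the result was not tested.

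The inner root sheath surrounds and moulds the growing shaft, and its keratins were the most abundant keratin RNAs in the libraries labelled WT. The 8 members took 1.04% ± 0.0418 of all counts in the libraries labelled WT and 0.00752% ± 0.000419 under the Dab2-cKO label, a 138-fold lower share. Krt71, a type II keratin whose mutants have a wavy coat, lies at chr15:101642384-101651544. It had 28998, 34947 and 32597 normalized counts in replicates 1, 2 and 3 labelled WT and 229.8, 272 and 286 under the Dab2-cKO label, with a log2 fold change of -6.94 ± 0.09 and an edgeR adjusted p of 1.93e-61. Krt25, a type I keratin at chr11:99206342-99213777, had 19244, 21849 and 21266 normalized counts in replicates 1, 2 and 3 labelled WT and 174, 154 and 164 under the Dab2-cKO label, with a log2 fold change of -6.98 ± 0.09 and an edgeR adjusted p of 4.02e-62. Krt27, another type I keratin of the sheath, had 11111, 13115 and 11825 normalized counts in replicates 1, 2 and 3 labelled WT and 119, 146 and 111 under the Dab2-cKO label, with a log2 fold change of -6.58 ± 0.10 and an edgeR adjusted p of 2.85e-59. The labels did not overlap for any of the 3, and all 3 stayed above the receptor percentile in the libraries labelled Dab2-cKO, at 120.0 ± 13.3, 82.5 ± 4.87 and 81.0 ± 11.7 normalized counts per kb.

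Krt26, Krt28, Krt72 and Krt73, which are used in the same sheath, had log2 fold changes of -6.34 ± 0.10, -6.37 ± 0.10, -6.32 ± 0.10 and -6.54 ± 0.11. These 7 genes thus lay between -6.98 and -6.32, although their levels per kb labelled WT ranged from 1092 to 14721. Krt74 changed less, by -2.47 ± 0.19. The annotation lists it as a transcribed unitary pseudogene, so it is counted among the 8 members but was left out of the promoters, which are of protein-coding genes. Its value is uncertain, because another annotated gene of the same name covers 96.0% of its exon bases on the same strand. Tchh, which encodes trichohyalin, the protein in which sheath filaments are embedded, went from a mean of 162270.3 to 1517 normalized counts, a log2 fold change of -6.74 ± 0.09 that lay inside the range of the 7 keratins.

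The companion layer separates the sheath from the outer root sheath, and its keratins are shared with the inner bulge and, after injury, with activated epidermis. The 5 members took 0.127% ± 0.00606 of all counts labelled WT and 0.0242% ± 0.000889 labelled Dab2-cKO. Krt17, a type I keratin of the outer root sheath and companion layer, had 6224, 7379 and 7116 normalized counts in replicates 1, 2 and 3 labelled WT and 2168, 2291 and 2185 under the Dab2-cKO label, with a log2 fold change of -1.64 ± 0.07 and an edgeR adjusted p of 3.78e-31. Krt75, the type II keratin most typical of the companion layer, had 2425, 2935 and 2676 normalized counts in replicates 1, 2 and 3 labelled WT and 153, 156 and 140.2 under the Dab2-cKO label. Its change was the largest of the layer, with a log2 fold change of -4.16 ± 0.09 and an edgeR adjusted p of 1.26e-49, and neither gene overlapped between labels. Krt6a, a type II keratin of the inner bulge, had 609, 668 and 669.9 normalized counts in replicates 1, 2 and 3 labelled WT and 192, 169 and 212 under the Dab2-cKO label, with a log2 fold change of -1.76 ± 0.10 and an edgeR adjusted p of 4.50e-25. Krt16, its type I partner in stressed epidermis, changed by -1.20 ± 0.17 (edgeR adjusted p = 5.83e-09).

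Krt6b was the member not called, at 0.023 ± 0.33 (edgeR adjusted p = 0.975), with means of 27.5 and 28.0 normalized counts that overlapped between labels. It shares 30.6% of its windows with other genes, Krt6a among them, and with the pair summed the log2 fold change was -1.66 ± 0.09. Krt16 shares 23.2% of its windows with Krt14 and a predicted gene, Gm11597. The sum of Krt14, Krt16, Krt17 and Krt42 changed by 0.0015 ± 0.06, as the higher Krt14 and the lower Krt17 offset each other in it. Krt17 shared no window with another gene and Krt14 2.68% of its windows, with Krt16. The estimate of Krt75 lay over 2 log2 units below those of Krt17, Krt6a and Krt16, more than 10 times the SE of each.

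Basal keratins mark the cells that HFSCs themselves belong to. Krt14, the type I basal keratin at chr11:100093988-100098490, had 5916, 6735 and 6482 normalized counts in replicates 1, 2 and 3 labelled WT and 11208, 11716 and 11493 under the Dab2-cKO label, with a log2 fold change of 0.85 ± 0.07 and an edgeR adjusted p of 1.16e-17. Krt5, its type II partner, had 6389, 7434 and 6930.2 normalized counts in replicates 1, 2 and 3 labelled WT and 10532, 10833 and 10434 under the Dab2-cKO label, with a log2 fold change of 0.62 ± 0.07 and an edgeR adjusted p of 5.08e-12. Krt15, the type I keratin used as a bulge marker, had 3329, 3796 and 3542 normalized counts in replicates 1, 2 and 3 labelled WT and 6423, 6407 and 6224 under the Dab2-cKO label, with a log2 fold change of 0.84 ± 0.07 and an edgeR adjusted p of 3.87e-17. All 3 libraries labelled Dab2-cKO lay above all 3 labelled WT for each gene. Krt15 and Krt14 thus had like fold changes. The rise depended on the scale: as a share of all counts the layer went from 0.206% ± 0.00575 to 0.259% ± 0.00821, a 1.26-fold higher share, and against a 1.5-fold change Krt5 was no longer called, with an adjusted p of 0.668 by edgeR's glmTreat.

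Suprabasal keratins appear when epidermal cells leave the basal layer. The 11 members took 0.205% ± 0.00671 of all counts labelled WT and 0.609% ± 0.00982 labelled Dab2-cKO, a 2.97-fold higher share. Krt77, a type II suprabasal keratin at chr15:101767166-101778245, had 7249, 8560.2 and 8066 normalized counts in replicates 1, 2 and 3 labelled WT and 30054, 30038 and 29494 under the Dab2-cKO label, with a log2 fold change of 1.91 ± 0.07 and an edgeR adjusted p of 1.08e-35. Krt10, the main type I keratin of this layer, had 3642, 4336 and 3978 normalized counts in replicates 1, 2 and 3 labelled WT and 20530.1, 20687 and 20797 under the Dab2-cKO label, with a log2 fold change of 2.37 ± 0.07 and an edgeR adjusted p of 1.21e-40. Krt1, its type II partner, had 1194, 1349 and 1271 normalized counts in replicates 1, 2 and 3 labelled WT and 10138, 9937 and 10259 under the Dab2-cKO label, with a log2 fold change of 2.99 ± 0.07 and an edgeR adjusted p of 8.81e-46. For these 3 genes every library labelled Dab2-cKO was above every library labelled WT without overlap. Krt2, a keratin of the upper epidermis, and Krt78 were less abundant and rose by 2.67 ± 0.14 and 1.82 ± 0.09. Krt79, which marks the infundibulum and sebaceous duct, rose by 0.93 ± 0.07.

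The other 5 suprabasal members were not called. Krt80, which is found in many stratified epithelia, had 1346, 1461 and 1362 normalized counts in replicates 1, 2 and 3 labelled WT and 1525, 1528 and 1454 under the Dab2-cKO label. The labels overlapped, with a log2 fold change of 0.11 ± 0.07 and an edgeR adjusted p of 0.265. Krt4, Krt13 and Krt76, keratins of internal epithelia such as the oral mucosa, and Krt9, a keratin of footpad skin, had under 100 normalized counts in every library, overlapped between labels and had estimates between -0.15 and 0.34. All 6 members called higher are keratins of the epidermis or infundibulum.

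Since both basal and suprabasal genes rose, all fold changes were also taken relative to the sum of Krt5 and Krt14, a scale chosen after the data had been seen. On it Krt10, Krt1 and Krt77 stood at 1.64, 2.26 and 1.18, and Krt79 at 0.20. Krt71 and Krt83 stood at -7.67 and -8.40, and Krt17 and Krt75 at -2.37 and -4.89. Krt15 stood at 0.11. Krt80 was called lower there, at -0.62. This scale takes nearly the same amount from the log2 fold change of every gene, so it mostly moves all values together.

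Genes of other skin cells moved with the suprabasal keratins. Among all genes tested, 16.8% were called higher and 11.5% lower. Of 10 markers of differentiated epidermis outside the keratins, 7 were higher and 2 lower, with a median log2 fold change of 1.46. Their sums ran from 20526 to 23500.5 in the libraries labelled WT and from 49240.2 to 50775 under the Dab2-cKO label. Lor, the loricrin of the cornified envelope, changed by 1.87 ± 0.08 and Krtdap by 1.65 ± 0.07, whereas Ivl, the involucrin of the same envelope, changed by -0.96 ± 0.07 and Casp14 by -0.39 ± 0.09. All 6 fibroblast markers were higher, with sums from 101493 to 122727 in the libraries labelled WT and from 353980.2 to 373641 under the Dab2-cKO label, as were all 5 skeletal muscle markers, from 18227 to 21188 in the libraries labelled WT and from 100554 to 102515 under the Dab2-cKO label, and all 5 sebaceous gland markers, from 7006 to 8017 in the libraries labelled WT and from 22672 to 23692 under the Dab2-cKO label. All 5 endothelial markers and 5 of 6 immune markers were higher as well. No marker of these lists was at 0 in all libraries, and the sums given show that reads of such markers were counted under both labels. Their part in the result was not tested.

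The remaining 11 members are keratins of simple epithelia, such as those lining glands and ducts, or of single tissues, and took 0.0154% ± 0.000523 of all counts labelled WT and 0.00964% ± 0.000623 labelled Dab2-cKO. Krt23, the most abundant of them per kb, had 704, 868 and 822 normalized counts in replicates 1, 2 and 3 labelled WT and 650.4, 713 and 649 under the Dab2-cKO label. The labels overlapped, and it was called lower with a log2 fold change of -0.25 ± 0.08 and an edgeR adjusted p of 0.0103, a call that was lost without replicate 2 or replicate 3 labelled WT. Krt18, a type I keratin of simple epithelia that also marks Merkel cells, had 67.9, 83.1 and 66.6 normalized counts in replicates 1, 2 and 3 labelled WT and 18.1, 29.9 and 32.0 under the Dab2-cKO label, with a log2 fold change of -1.46 ± 0.26 and an edgeR adjusted p of 3.29e-06. Its type II partner Krt8 changed by -1.28 ± 0.31, and both stayed apart between labels. Krt20, another Merkel cell keratin, had 63.5, 58.7 and 51.3 normalized counts in replicates 1, 2 and 3 labelled WT and 44.8, 93.2 and 58.5 under the Dab2-cKO label. The labels overlapped and it was not called (log2 fold change 0.17 ± 0.23, edgeR adjusted p = 0.671). Krt90 changed by -1.36 ± 0.26.

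Krt12, the type I keratin of the cornea, was the 1 member of this set called higher. It had 13.4, 1.81 and 5.98 normalized counts in replicates 1, 2 and 3 labelled WT and 19.1, 15 and 24.3 under the Dab2-cKO label, which rests on 2 to 22 counts per library, with a log2 fold change of 1.51 ± 0.53 and an edgeR adjusted p of 0.0227. DESeq2 gave it no adjusted p, and the call was lost without any 1 of 4 libraries, replicates 1 and 3 labelled Dab2-cKO and replicates 2 and 3 labelled WT, and 57.9% of its exon bases overlap a gene on the other strand, A830036E02Rik. Not called were Krt7, Krt19, Krt24, Krt42 and Krt222, with log2 fold changes between -0.95 and 0.48. Krt19, which is also used in the bulge, had 0.43 ± 0.27 (edgeR adjusted p = 0.268), and Krt24 did not overlap between labels. Krt88, which was placed in no layer, had 26.7, 16.3 and 22.2 normalized counts in replicates 1, 2 and 3 labelled WT and 30.5, 28.8 and 13.2 under the Dab2-cKO label. It overlapped between labels and was not called, with a log2 fold change of 0.17 ± 0.37.

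As type I and type II chains pair, the summed counts per kb of type I genes were divided by those of type II genes. Over all keratins the ratio was 1.09 ± 0.0147 (SD, n = 3) labelled WT and 1.14 ± 0.0124 labelled Dab2-cKO. The labels did not overlap, but the direction turned when counts were not divided by exon length, with 0.881 ± 0.0109 and 0.733 ± 0.00847. Within the inner root sheath the ratio per kb was 1.13 ± 0.0180 and 1.06 ± 0.0326, close to balance under both labels although the RNA differed by over 100-fold. In the hair shaft it was 0.785 ± 0.020 and 1.05 ± 0.167, the second from few counts and both without the type II hard keratin Krt85, which was not analysed here and is also not part of the hair shaft share. It was 1.72 ± 0.0206 and 2.02 ± 0.0166 for basal and 0.527 ± 0.00905 and 0.724 ± 0.0101 for suprabasal keratins. Of the 5 layers the companion layer had the largest shift, from 3.84 ± 0.0677 to 9.97 ± 0.844, with log2 fold changes of -4.16 for the type II gene Krt75 and -1.64 for the type I gene Krt17.

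The keratin genes lie in 2 clusters, with 27 type I genes on chromosome 11 and the type II genes and Krt18 on chromosome 15. In chromosome order, most genes of one layer stood side by side, and at several borders between layers the neighbours changed in opposite directions. On chromosome 11, Krt25 to Krt28 were followed by Krt10, so that Krt28 at chr11:99255698-99265735 changed by -6.37 ± 0.10 and Krt10 at chr11:99276072-99280195 by 2.37 ± 0.07. Past Krt12, Krt20 and Krt23 came the 9 hair shaft genes from Krt39 to Krt36, all lower, and then Krt13, Krt15, Krt19, Krt9 and Krt14, of which none was called lower, before Krt16 and Krt17, which were. On chromosome 15, Krt73 at chr15:101701743-101710802 changed by -6.54 ± 0.11 and the next gene, Krt2 at chr15:101719124-101726605, by 2.67 ± 0.14. Krt5 stood between Krt6a and Krt71, and rose while both were lower.

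**Figure D4:**
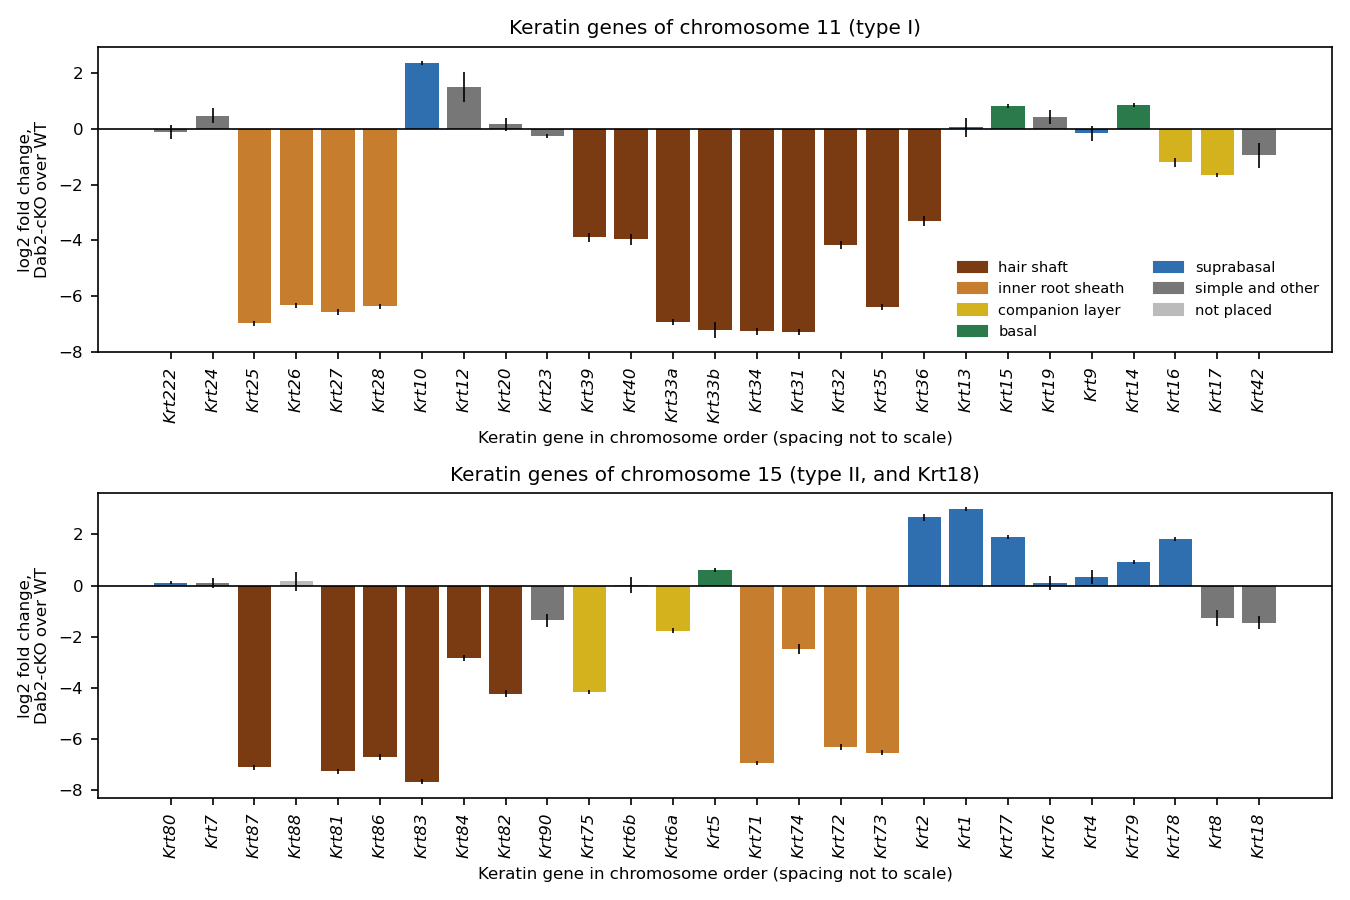
Log2 fold changes, Dab2-cKO over WT, for keratin genes in chromosome order, with type I genes of chromosome 11 above and genes of chromosome 15 below, coloured by layer; lines are standard errors and spacing is not to scale. Blocks of inner root sheath and hair shaft genes point down beside basal and suprabasal genes that point up.

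Regulators of hair keratin genes were then counted. All 12 of the list were lower, with a median log2 fold change of -1.99, beside 11.5% of all genes called lower. The list was chosen with earlier results of these data known, so its count beside that share is descriptive only. Hoxc13, a homeobox factor that binds hard keratin promoters, went from a mean of 576 to 34.3 normalized counts, a change of -4.05 ± 0.14. Msx2 and Dlx3, homeobox factors of the matrix, changed by -4.22 ± 0.13 and -4.21 ± 0.09. Foxn1, the factor mutated in nude mice, changed by -3.08 ± 0.13, and Lef1, the Wnt effector of the precortex, by -3.09 ± 0.10. Gata3, a factor of the inner root sheath, changed by -0.72 ± 0.07, while Vdr and Cux1 changed by -1.74 ± 0.08 and -2.25 ± 0.07. The other members, Prdm1, Trps1, Ovol1 and Foxq1, lay between -1.52 and -0.85. All 12 moved less on the log2 scale than the cortex median.

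Proteins that attach or embed keratin filaments changed in both directions. Of 14 such genes tested, 7 were lower, 4 higher and 3 not called, with a median of -0.24, beside 11.5% of all genes called lower and 16.8% higher. Dsp, the desmoplakin that anchors keratins at desmosomes, changed by -0.26 ± 0.07, Jup by -0.25 ± 0.07 and Pkp3 by -1.17 ± 0.07. Plec and Dst, which link keratins to hemidesmosomes in basal cells, changed by 0.72 ± 0.07 and 1.00 ± 0.07. Flg and Hrnr, which bundle keratins in the cornified layer, changed by 0.85 ± 0.07 and 2.48 ± 0.08, whereas Evpl, the envoplakin of the envelope, changed by -0.56 ± 0.07 and Ppl, its partner, by 0.15 ± 0.07 without a call. Of the 7 lower genes, only Tchh and Pkp3 passed a test against a 1.5-fold change.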

How the data were processed

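Total RNA of sorted HFSCs was sequenced as paired reads from libraries of the SMARTer Stranded total RNA kit, 3 per genotype. Per the submitters' processing notes and the methods, reads were trimmed with fastp 0.23.4, aligned to GRCm39 with HISAT2 2.2.1 and counted per gene with featureCounts 2.0.6. The deposited counts are the authors' raw counts, without normalization. The annotation release, the strand setting and how multi-mapping reads were handled are not given in the sources used here. The authors' own DESeq2 comparison (fold changes, p-values and counts divided by size factors) was also deposited and was not used.

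All genes were filtered by the edgeR 4.0.16 expression filter in R 4.3.3, scaled by TMM and tested by its quasi-likelihood method (robust dispersions, Benjamini-Hochberg adjustment over 32149 genes). Adjusted p under 0.05 was called. Errors of log2 fold changes are SE. A normalized count is the count over the effective library size, times the mean effective size; levels between genes are per kb of exon. Totals of 7040032 to 11696457 counts per library set the counting precision. The replicates are labelled as biological replicates. The p-values measure the spread between these libraries, and whether that is the full spread between mice was not tested. Positions, exon lengths and promoters came from GENCODE release M39 on GRCm39, which matched all 54 keratin genes by identifier.

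Layers were set by known sites of expression. Values in every library are given for the 3 members of each layer with the highest level per kb, for members called against their layer and for members that overlapped with a mean of at least 100 normalized counts. The members and lists were chosen with earlier results of these data known, so counts of called genes beside the share of all genes are descriptive only. Alternatives were DESeq2 1.42.0, other scalings and filters, a replicate block, glmTreat against a 1.5-fold change, summed paralogs and each library left out. The script was tested on simulated data. Krt85 and Eppk1 were not analysed here.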

Additional observations from a re-analysis of the deposited data

How the results depend on the processing

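Across up to 15 alternatives, 38 of the 41 called keratin genes kept their direction and call in each; the exceptions were Krt5, Krt12 and Krt23, and summed paralogs are given separately. The hair shaft (15 lower), inner root sheath (8 lower) and companion layer (4 lower) counts were the same under all of them. Leaving out 1 library gave 30 to 32 keratins lower and 9 to 10 higher. The replicate numbers paired the libraries weakly at most. Same-numbered libraries had correlations of 0.0231, 0.0117 and 0.00759, and each library correlated best with its own number. With the replicate block 31 keratins were lower and 10 higher, as without it. Scaling moved the median of all genes to -0.45 with library size only, -0.17 with upper-quartile factors and -0.75 when scaled to Krt5 and Krt14, a scale added after seeing the data, and directions shift with it.

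Relative to Krt5 and Krt14, 1 basal, 3 suprabasal and 8 simple and other keratins were lower and 0 simple and other ones higher, and 6 other intermediate filament genes were lower and 3 higher. Library size only gave 1 suprabasal keratin lower and 5 other intermediate filament genes lower, and upper-quartile factors gave 4 of the latter. A mean count of at least 50, which tests fewer genes, left 2 simple and other keratins lower. The 1 simple and other keratin called higher, Krt12, became 0 by DESeq2, which gave it no adjusted p, and by glmTreat, library size only and the mean count of at least 50, and 0 to 1 without 1 library. By glmTreat 2 filament partners and 1 other intermediate filament gene were lower. Outside mitochondrial and rRNA genes, which shrinks the denominator, shares labelled WT and Dab2-cKO were 0.645% and 0.00583% for the hair shaft, 1.25% and 0.00993% for the inner root sheath, 0.154% and 0.0320% for the companion layer, 0.248% and 0.343% for basal, 0.247% and 0.804% for suprabasal, 0.0186% and 0.0127% for simple and other and 2.57% and 1.21% for all keratins. The type I to type II ratio without division by length was 0.881 and 0.733.

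Directions that turned were these log2 fold changes. With library size only they were Krt20 -0.25, Krt13 -0.37, Krt6b -0.40, Krt76 -0.34, Krt4 -0.088, Krt80 -0.32, Krt7 -0.32 and Krt88 -0.26. With upper-quartile factors they were Krt13 -0.084, Krt6b -0.11, Krt76 -0.054, Krt80 -0.031 and Krt7 -0.031. Relative to Krt5 and Krt14 they were Krt24 -0.24, Krt20 -0.56, Krt13 -0.67, Krt19 -0.29, Krt6b -0.69, Krt5 -0.12, Krt76 -0.65, Krt4 -0.38, Krt80 -0.62, Krt7 -0.62 and Krt88 -0.57. Krt6b was at -0.0038 with TMM factors computed without mitochondrial and the 100 most abundant genes, at -0.0093 without the filter on low counts, and at -1.66 when summed with Krt6a. Krt16, Krt17 and Krt42 were at 0.0015 when summed with Krt14. Without 1 library the values were -0.27 to 0.039 for Krt222, -0.19 to 0.38 for Krt20, -0.13 to 0.17 for Krt13, -0.30 to 0.017 for Krt9, -0.16 to 0.27 for Krt6b, -0.12 to 0.37 for Krt76, -0.040 to 0.24 for Krt7 and -0.061 to 0.44 for Krt88. None of the genes that turned when 1 library was left out was called. The cause was not tested.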

Other observations

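Intermediate filament genes outside the keratins were counted beside them. Of 13 genes, 5 were higher, 2 lower and 6 not called in the libraries labelled Dab2-cKO, beside 16.8% of all genes higher and 11.5% lower, with a median log2 fold change of 0.38 and sums from 8844 to 10635 in the libraries labelled WT and from 25943 to 26196 in those labelled Dab2-cKO. Des, the desmin of muscle, had 1384, 1729.7 and 1593 normalized counts in replicates 1, 2 and 3 labelled WT and 8694, 8629 and 8815 in those labelled Dab2-cKO, a log2 fold change of 2.47 ± 0.07. Vim, the vimentin of mesenchymal cells, had 2509.6, 3239 and 2832 and 10166, 9999 and 10193, a change of 1.82 ± 0.07. Vim and Des had no overlap between labels. Synm changed by 1.70 ± 0.08 and Nes by 0.46 ± 0.10.

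Among the lamins, which line the nucleus, Lmna changed by 0.76 ± 0.07, Lmnb1 by -1.79 ± 0.08 and Lmnb2 by -0.60 ± 0.14. The genes not called were Prph, Gfap, Ina, Nefl, Nefm and Nefh, which are known from neurons and glia and had means of at most 101 normalized counts.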
